A study of Homo sapiens with 9 samples.

Results

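The 10 genes described here are known targets of beta-catenin: AXIN2, NKD1, RNF43, ZNRF3, SP5, LEF1, LGR5, TBX3, GLUL and SLC1A2. They comprise feedback genes of the Wnt pathway, transcription factors it induces, and target genes typical of liver. They were taken by gene symbol from the array's platform annotation, and the transcript cluster with the highest mean signal would have been kept for a gene with several. Each of the 10 had exactly 1 cluster, so 10 of the 17687 genes measured were members and none was lost to a filter.

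HepG2 is an established human liver cancer cell line, and all 9 samples came from it. The samples formed 3 groups of 3 arrays: untreated cells, cells given 200 ng/ml recombinant SPARC, and cells given 800 ng/ml. RNA was collected at 24 h. SPARC is a secreted glycoprotein that binds collagen and alters the contact between cells and their matrix. The arrays carried 1 biotin-labelled total RNA each. Both doses are given by the sample labels, although the extraction protocol speaks of 800 ng/ml alone. Whether the arrays of a group stem from separate cultures is not stated, so a p-value here refers to the scatter of these samples, possibly a technical one. In RNA from whole cultures, fewer cells expressing a gene and less RNA per cell cannot be told apart.

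In the Wnt pathway, beta-catenin is held low by a destruction complex built on AXIN and APC. A Wnt ligand bound to its Frizzled and LRP receptors stops that complex, and beta-catenin then enters the nucleus and activates genes through TCF and LEF proteins. Several of its targets feed back on the pathway: AXIN2 rebuilds the destruction complex, NKD1 acts on Dishevelled, and RNF43 and ZNRF3 take Frizzled receptors off the cell surface. In liver, the pathway marks hepatocytes around the central vein, where GLUL makes glutamine and SLC1A2 takes up glutamate. HepG2 is known to carry an activating change of CTNNB1, the gene of beta-catenin, so the pathway is taken to be active in the untreated cells too. Its activity in these cells was not tested here.

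TCF and LEF proteins bind DNA around the letters CTTTG. Promoter windows of 300 bases, 250 before and 50 after the annotated start, were held for SP5, LEF1, GLUL and RNF43, 4 of the 10 genes, with 2 starts each for GLUL and RNF43. The SP5, LEF1 and first GLUL windows are shown because the 3 genes stood at different places in the comparison of the doses, where the mean of SP5 and LEF1 was lower and that of GLUL higher at 800 ng/ml. The sequences are from RefSeq, build GRCh38.p14, each read 5′ to 3′ on the strand of the gene. Capitals mark CTTTG, or CAAAG where the match lies on the opposite strand.
SP5, chr2:170715087-170715386, plus strand: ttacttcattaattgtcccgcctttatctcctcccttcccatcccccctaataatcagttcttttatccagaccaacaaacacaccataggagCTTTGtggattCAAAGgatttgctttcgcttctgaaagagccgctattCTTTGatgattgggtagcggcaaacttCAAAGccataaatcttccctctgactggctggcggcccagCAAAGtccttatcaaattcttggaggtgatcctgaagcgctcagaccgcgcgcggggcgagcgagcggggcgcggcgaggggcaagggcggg
LEF1, chr4:108166252-108166551, minus strand: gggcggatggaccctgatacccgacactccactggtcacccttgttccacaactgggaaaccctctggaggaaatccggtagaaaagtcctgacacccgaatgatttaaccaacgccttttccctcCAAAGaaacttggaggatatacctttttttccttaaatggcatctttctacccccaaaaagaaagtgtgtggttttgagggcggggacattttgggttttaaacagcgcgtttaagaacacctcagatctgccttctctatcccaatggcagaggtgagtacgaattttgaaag
GLUL, chr1:182391741-182392040, minus strand: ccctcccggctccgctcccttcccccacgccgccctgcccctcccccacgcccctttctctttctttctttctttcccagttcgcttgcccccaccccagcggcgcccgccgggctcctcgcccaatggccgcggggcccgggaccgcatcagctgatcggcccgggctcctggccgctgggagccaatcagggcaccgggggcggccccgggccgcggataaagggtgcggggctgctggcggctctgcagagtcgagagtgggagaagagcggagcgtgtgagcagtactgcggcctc
The SP5 window held 5 matches to CTTTG, whose first bases lay at -157, -146, -109, -82 and -42 from the start. Among 35116 promoter windows of the same length, 0.185% held 5 or more and 47.5% held at least 1. The longer words in which CTTTG is followed by AA, AT, TA or TT, which overlap the matches just counted, occurred 3 times on either strand in the SP5 window, and 0.179% of all windows held 3 or more. LEF1 held 1 CTTTG, and each RNF43 window, at chr17:58417485-58417784 and chr17:58402672-58402971 on the minus strand, also held 1. None of these 3 windows held a longer word, and 13.8% of all windows did. The 2 GLUL windows, the second at chr1:182391292-182391591, held 0. A match is a description of the letters in the window and says nothing on whether a factor was bound there.

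Every comparison with untreated cells depends on untreated replicate 2, an array unlike the rest. Its Pearson correlation with the other 8 arrays across genes was 0.891 to 0.920, against 0.979 to 0.991 among those 8. Its log2 signals minus the mean of untreated replicates 1 and 3 had medians of 0.38, 0.56, -0.51 and -0.82 in 4 equal bins of genes from dim to bright. It lay below the other 8 arrays for 9 of the 10 target genes and above them for LEF1. Over all genes these shares were 41.7% and 32.5%. All targets but SP5, SLC1A2 and LEF1 lay in the brightest bin, and shares among genes of like signal were not counted. The deviation was -1.43 for SLC1A2, -1.23 for AXIN2, -1.07 for SP5 and 0.95 for LEF1. The other 6 lay between -1.001 for TBX3 and -0.65 for NKD1. Values are therefore given with all 9 arrays and without this array. What set this array apart was not tested. Among the other 8 arrays, 200 ng/ml replicate 1 leaned the same way. Its log2 signals had an SD of 1.914, against 1.97 to 2.003 in the rest of the 8 and 1.67 in untreated replicate 2. Its lower quartile of signal, 4.07, was the highest of the 8, against 4.39 in untreated replicate 2. Both comparisons with 200 ng/ml include it, save where each array is left out in turn.

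**Figure D1:**
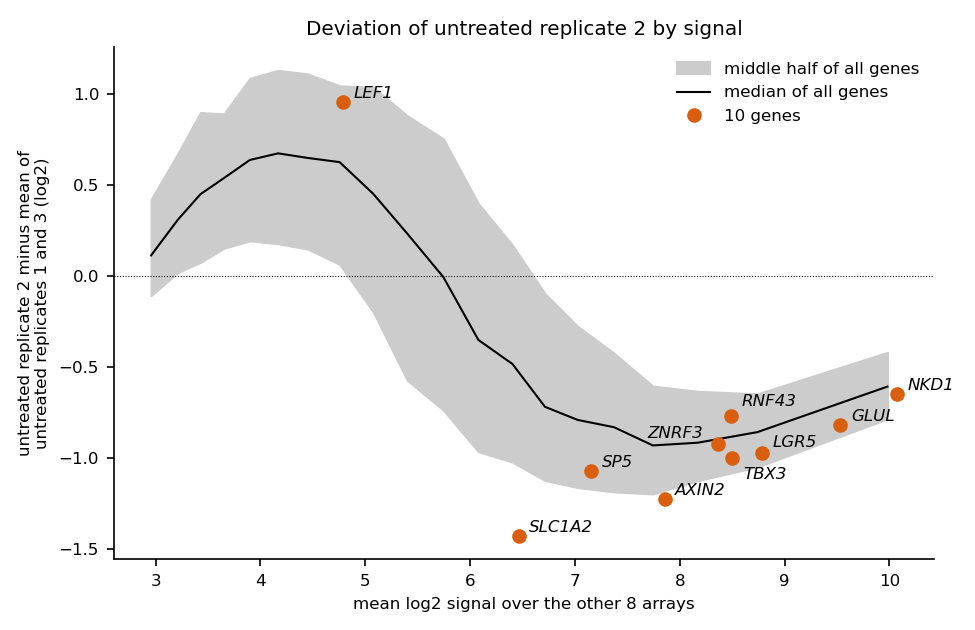
Deviation of untreated replicate 2 from the mean of untreated replicates 1 and 3 (vertical axis, log2) against the mean log2 signal over the other 8 arrays (horizontal axis). The line is the median of all genes in bins of signal, the band their interquartile range, and the points the 10 target genes, of which SLC1A2 at -1.43 lies below the band and LEF1 at 0.95 among the dim genes whose median is above 0.

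The 7 hepatocyte markers measured, among them ALB (albumin) and AFP (alpha-fetoprotein), had a mean log2 signal between 10.02 and 10.39 in the 9 arrays. Signals of different clusters depend on their probes and the table has no detection calls, so this value is no test of the cell type, and levels are compared below only within a gene.

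The question addressed by the doses was whether SPARC alters expression in HepG2 cells, here that of genes that report beta-catenin activity. Among the feedback genes, AXIN2, the scaffold of the destruction complex, had log2 signals of 7.93, 6.71 and 7.94 in untreated replicates 1, 2 and 3, of 8.06, 7.64 and 7.99 at 200 ng/ml, and of 7.78, 7.70 and 7.81 at 800 ng/ml. Its 800 ng/ml samples lay close together, below untreated replicates 1 and 3 and above untreated replicate 2. NKD1, an inhibitor that binds Dishevelled, had 10.07, 9.44 and 10.11 in untreated cells, 10.06, 10.12 and 10.08 at 200 ng/ml and 9.96, 10.07 and 10.07 at 800 ng/ml. Apart from untreated replicate 2 it was almost level: its SD over the other 8 arrays was 0.048, and 0.503% of all genes had a smaller one.

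RNF43, a membrane ubiquitin ligase that removes Frizzled receptors, had 8.47, 7.64 and 8.36 in untreated cells, 8.58, 8.49 and 8.51 at 200 ng/ml and 8.56, 8.54 and 8.40 at 800 ng/ml. The 200 ng/ml samples all lay above the untreated ones, the closest pair by little, while the 800 ng/ml samples overlapped with both other groups. ZNRF3, the related ligase with the same role, had 8.29, 7.41 and 8.39 in untreated cells, 8.47, 8.32 and 8.40 at 200 ng/ml and 8.47, 8.34 and 8.28 at 800 ng/ml. Its groups overlapped throughout. The SD over the 8 arrays was 0.076 for both ligases, and 3.71% of genes had a smaller SD than RNF43 and 3.66% a smaller one than ZNRF3.

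Among the transcription factors, SP5, a zinc finger protein of the Sp family and a direct target whose promoter is printed above, had 7.03, 6.06 and 7.23 in untreated cells, 7.51, 7.12 and 7.46 at 200 ng/ml and 7.01, 6.80 and 7.08 at 800 ng/ml. All 800 ng/ml samples lay below all 200 ng/ml samples, and the untreated samples overlapped with both. LEF1, the DNA-binding partner of beta-catenin that is itself a target, had 4.83, 5.80 and 4.87 in untreated cells, 5.30, 4.61 and 5.04 at 200 ng/ml and 4.70, 4.66 and 4.27 at 800 ng/ml. All 800 ng/ml samples lay below all untreated samples, and the 200 ng/ml samples were spread widely and overlapped with both. TBX3, a T-box factor that beta-catenin induces in liver tumours, had 8.49, 7.47 and 8.44 in untreated cells, 8.23, 8.48 and 8.51 at 200 ng/ml and 8.64, 8.67 and 8.54 at 800 ng/ml. Its 800 ng/ml samples were the highest 3 of the 9.

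LGR5, the receptor for R-spondins that marks stem cells and hepatocytes near the central vein, had 8.83, 7.83 and 8.77 in untreated cells, 8.58, 8.85 and 8.76 at 200 ng/ml and 8.86, 8.78 and 8.84 at 800 ng/ml. The groups overlapped. GLUL, glutamine synthetase, had 9.58, 8.77 and 9.60 in untreated cells, 9.39, 9.36 and 9.31 at 200 ng/ml and 9.64, 9.69 and 9.69 at 800 ng/ml. Its 3 groups did not overlap once untreated replicate 2 was set aside: the 200 ng/ml samples were lowest, untreated replicates 1 and 3 lay in between and the 800 ng/ml samples were highest. How many of all genes had 3 separate groups was not counted. SLC1A2, the glutamate transporter, had 6.22, 5.07 and 6.78 in untreated cells, 5.82, 6.30 and 6.04 at 200 ng/ml and 6.71, 6.88 and 6.97 at 800 ng/ml. The 800 ng/ml samples all lay above the 200 ng/ml samples, and untreated replicate 3 reached into the 800 ng/ml range.

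**Figure D2:**
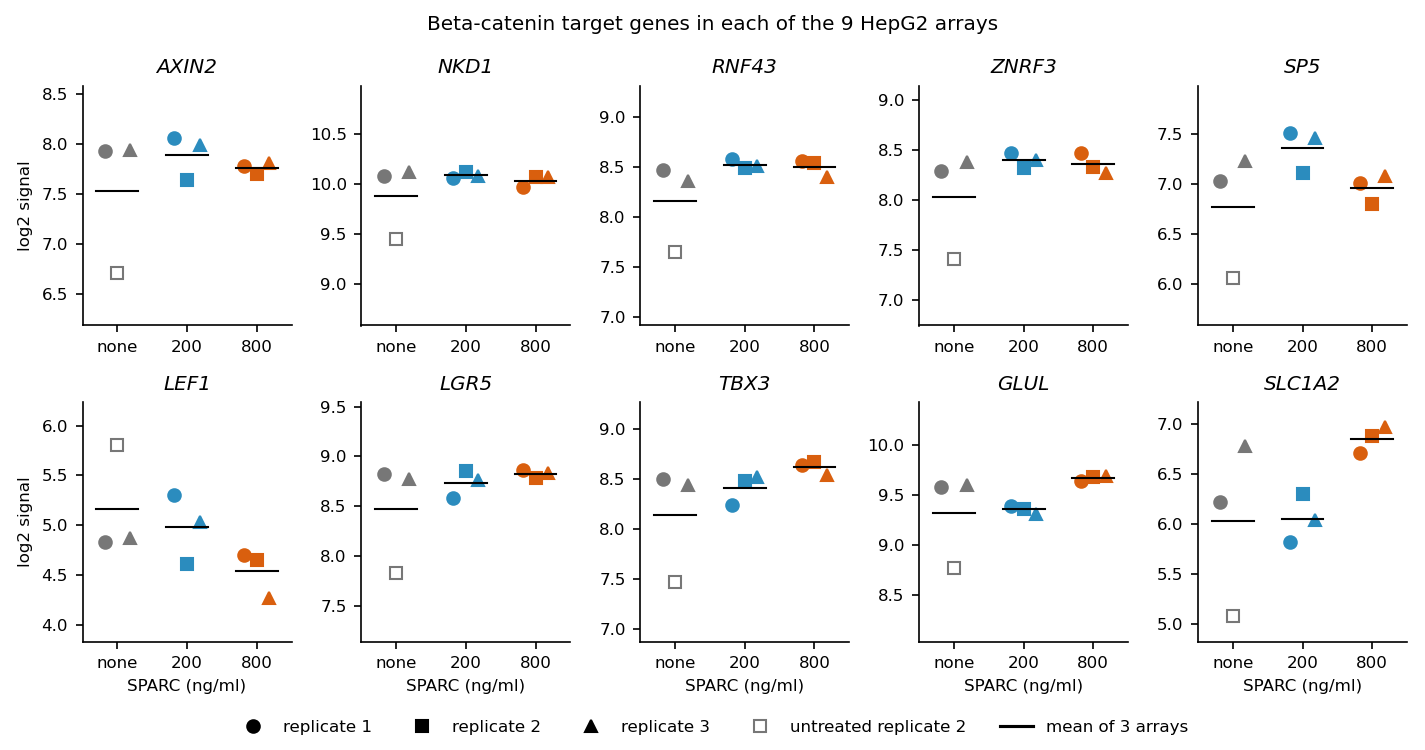
Log2 signal (vertical axis, one panel for each of the 10 genes, each spanning the same height) in each sample by SPARC dose (horizontal axis), with the marker shape giving the replicate, the open square untreated replicate 2 and the bar the mean of 3 arrays. GLUL at 800 ng/ml lies between 9.64 and 9.69, above all samples at 200 ng/ml, and untreated replicate 2 is the lowest sample in every panel but that of LEF1.

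The genes differed in how much they varied. Over the 8 arrays other than untreated replicate 2, the SD was 0.43 for SLC1A2, and 98.0% of all genes had a smaller one. It was 0.31 for LEF1 and 0.24 for SP5, with 86.1% and 66.2% of genes below them. The other 7 had SDs from 0.048 to 0.15, under the median of 0.20 over all genes. The feedback genes AXIN2, NKD1, RNF43 and ZNRF3 were among these 7. SLC1A2, LEF1 and SP5 were also the only targets outside the brightest of the 4 bins of genes. Their mean signals over the 8 arrays were 6.46, 4.785 and 7.16. SDs were not compared among genes of like signal, so gene class and signal level cannot be told apart here.

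In the comparison of 800 ng/ml with 200 ng/ml, SLC1A2 and GLUL were higher and SP5 and LEF1 lower at 800 ng/ml, but no target passed the test over all genes. SLC1A2 averaged 6.85 ± 0.13 at 800 ng/ml and 6.05 ± 0.24 at 200 ng/ml (SD, n = 3 each), a difference of 0.80 or 1.74-fold, and 99.7% of genes had a lower difference. GLUL averaged 9.67 ± 0.03 at 800 ng/ml and 9.36 ± 0.04 at 200 ng/ml, a difference of 0.32 or 1.24-fold. SP5 averaged 6.96 ± 0.15 at 800 ng/ml and 7.36 ± 0.21 at 200 ng/ml, a difference of -0.40 or 0.759-fold.

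The moderated test of limma, fitted over all 9 arrays, gave SLC1A2 an SE of 0.35, a 95% interval of 0.02 to 1.58 and a Benjamini-Hochberg adjusted p of 0.999. Leaving untreated replicate 2 out of the fit changes neither group's mean here, only the estimate of the spread. The limma interval of SLC1A2 then was 0.40 to 1.19 (SE 0.18, adjusted p = 0.185). GLUL then had an SE of 0.09 and an interval of 0.11 to 0.53 (limma adjusted p = 0.214). SP5 had an SE of 0.14 and an interval of -0.71 to -0.08 (limma adjusted p = 0.252). For LEF1 the difference was -0.44 with an SE of 0.19 and an interval of -0.86 to -0.02 (limma adjusted p = 0.306). TBX3 differed by 0.21 with an interval of -0.05 to 0.46, and the remaining 5 by -0.13 for AXIN2 to 0.09 for LGR5. With all 9 arrays the intervals of GLUL, SP5 and LEF1 held 0. They were -0.189 to 0.821, -1.021 to 0.227 and -1.075 to 0.192, each with a limma adjusted p of 0.999.

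Counted against all genes, 0 of the 10 targets had an adjusted p under 0.05, with or without untreated replicate 2, and the share over all genes was 0% in both fits. An unadjusted limma p under 0.05 was found for 1 target with 9 arrays, against 2.41% of genes, and for 4 targets without untreated replicate 2, against 15.3% of genes. The 800 ng/ml samples lay wholly above the 200 ng/ml samples for 3 targets (SLC1A2, GLUL and TBX3), against 12.1% of genes, and wholly below them for SP5 alone, against 9.72% of genes. The median difference over the targets was -0.03, and it was 0.01 over all genes. The differences of the feedback genes AXIN2, NKD1, RNF43 and ZNRF3 lay between -0.13 and -0.03, of which RNF43 and ZNRF3 turned to 0.017 and 0.005 under median centring. Without untreated replicate 2 the intervals of all 4 held 0 and reached from -0.42 at the lowest, for AXIN2, to 0.20 at the highest, for RNF43.

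In the comparison of 800 ng/ml with untreated cells, the targets' differences turned on untreated replicate 2. With all 9 arrays, 9 of 10 targets had a higher mean at 800 ng/ml, with a median difference of 0.33, against 0.04 over all genes. Without that array 6 of 10 did, with a median of 0.02, against -0.01 over all genes. SLC1A2 averaged 6.85 ± 0.13 at 800 ng/ml and 6.03 ± 0.87 in untreated cells (SD, n = 3 each), a difference of 0.83 or 1.77-fold with an SE of 0.35 and an interval of 0.05 to 1.60 (limma adjusted p = 0.659). Without untreated replicate 2 its difference was 0.35 with an interval of -0.09 to 0.79 (limma adjusted p = 0.971). LEF1 differed by -0.63, or 0.648-fold, with an interval of -1.26 to 0.01 (limma adjusted p = 0.659), and by -0.31 without that array (adjusted p = 0.971). AXIN2, NKD1 and SP5 changed sign: their differences were 0.24, 0.16 and 0.19 with 9 arrays and -0.17, -0.06 and -0.17 without untreated replicate 2.

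TBX3 and GLUL were the 2 targets whose 800 ng/ml samples all lay above the untreated samples, both with the 9 arrays, against 6.08% of genes, and without untreated replicate 2, against 10.5% of genes. Their differences were 0.48 and 0.35 with all arrays and 0.15 and 0.08 without that array. LEF1 was the 1 target wholly below with 9 arrays, against 5.14% of genes. Without untreated replicate 2 there were 3, AXIN2, NKD1 and LEF1, against 11.8% of genes. An adjusted p under 0.05 was found for 0 targets and 0% of genes in both fits. An unadjusted limma p under 0.05 was found for 1 target (SLC1A2) with 9 arrays, against 4.17% of genes, and for 0 without that array, against 5.36% of genes.

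At 200 ng/ml against untreated cells, SP5 had the largest positive difference among the 10 targets with all arrays. It averaged 7.36 ± 0.21 at 200 ng/ml and 6.77 ± 0.63 in untreated cells (SD, n = 3 each), a difference of 0.59 with an SE of 0.28 and an interval of -0.04 to 1.21 (limma adjusted p = 0.966). Without untreated replicate 2 the difference was 0.23 with an interval of -0.12 to 0.58. The feedback genes AXIN2, ZNRF3, RNF43 and NKD1 had differences of 0.37, 0.37, 0.37 and 0.21 with 9 arrays, and -0.04, 0.06, 0.11 and -0.01 without that array. SLC1A2 differed by 0.03 with 9 arrays and by -0.45 without untreated replicate 2, with an interval of -0.89 to -0.01 (limma adjusted p = 0.435). GLUL averaged 9.36 ± 0.04 at 200 ng/ml (SD, n = 3) and 9.59 in untreated replicates 1 and 3, a difference of -0.23 (limma adjusted p = 0.441), against 0.04 with all arrays.

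Across the 10 targets, 9 had a higher mean at 200 ng/ml than in untreated cells with 9 arrays, with a median difference of 0.26, and 4 did without untreated replicate 2, with a median of -0.02. Over all genes these medians were 0.03 and -0.02. RNF43 was the 1 target wholly above the untreated samples in both settings, against 3.92% of genes with 9 arrays and 13.8% without untreated replicate 2. The count wholly below was 0 with 9 arrays, against 3.06% of genes, and 1 without that array (GLUL), against 17.8% of genes. An adjusted p under 0.05 was found for 0 targets and 0% of genes in both fits. An unadjusted limma p under 0.05 was found for 0 targets with 9 arrays, against 1.78% of genes, and for 2 (SLC1A2 and GLUL) without that array, against 11.3% of genes. Any 2 of the 3 comparisons share a group of samples, so their values are set side by side only.

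**Figure D3:**
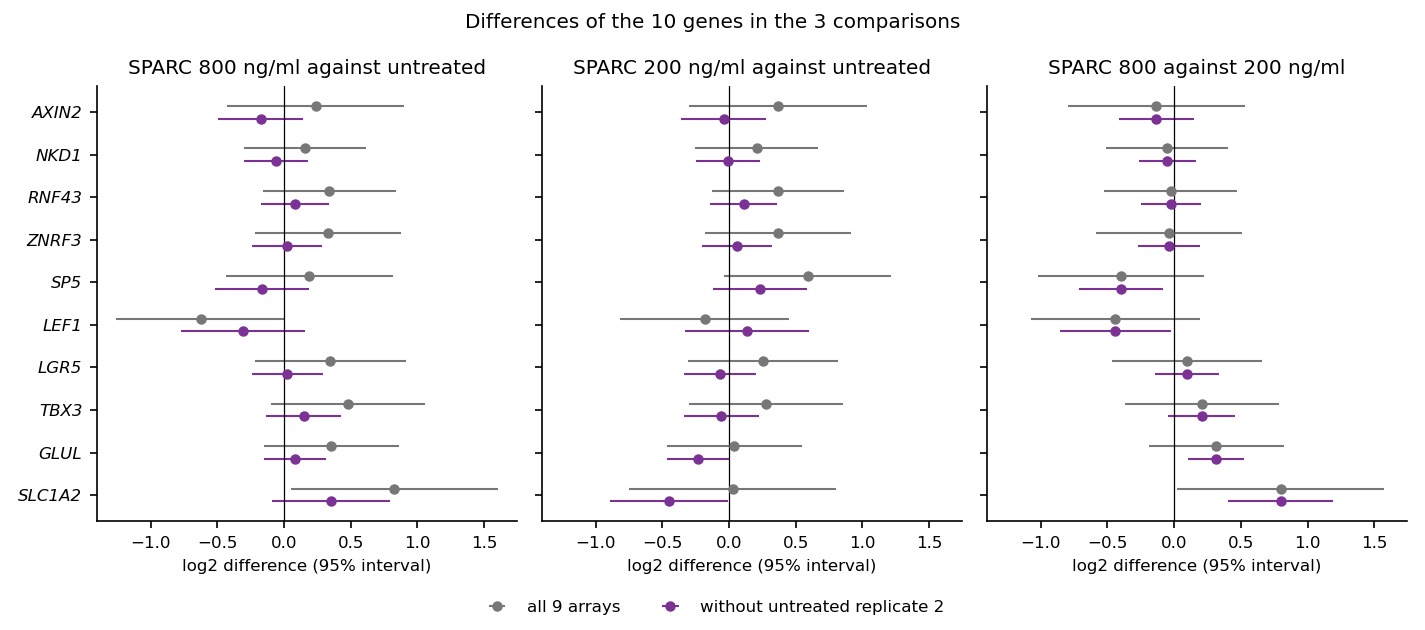
Log2 difference (horizontal axes) of each of the 10 genes in the 3 comparisons, with 95% limma intervals, for all 9 arrays (grey) and without untreated replicate 2 (purple). The grey points of the comparisons with untreated cells mostly lie right of the purple ones, and the 800 against 200 ng/ml panel keeps its points, with SLC1A2 at 0.80 and SP5 at -0.40.

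With 9 arrays, the targets' intervals reached 1.49-fold to either side of the difference at the median. Without untreated replicate 2 they reached 1.21-fold in the comparisons with untreated cells and 1.19-fold between the doses. A typical target's difference smaller than this could not be told from 0 in a single comparison, before any adjustment.

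SLC1A2 is also the main glutamate transporter of astrocytes, and markers of neural tissue differed within the 800 ng/ml group. The mean log2 signal of 12 astrocyte and neural markers was 4.27 to 4.96 in untreated cells, 4.14 to 4.54 at 200 ng/ml, and 4.42, 5.85 and 5.81 in 800 ng/ml replicates 1, 2 and 3. For 8 of the 12 markers, 800 ng/ml replicates 2 and 3 both lay above the other 7 arrays, against 3.15% of all genes. GFAP, the intermediate filament of astrocytes, had 4.50, 5.58 and 4.97 in untreated cells, 5.03, 4.95 and 5.21 at 200 ng/ml and 4.54, 7.88 and 7.75 at 800 ng/ml. The markers without this pattern were AQP4, GJA1, ALDH1L1 and ALDOC. AQP4 and ALDOC lacked it through untreated replicate 2 alone. In 800 ng/ml replicates 2 and 3 AQP4 had 4.19 and 4.21, against 4.26 in that array, and ALDOC 7.30 and 7.39, against 7.34. The share of all genes with the pattern once that array is set aside was not counted. In 800 ng/ml replicates 2 and 3, GJA1 had 3.528 and 3.895 and ALDH1L1 4.657 and 3.982, within or below the range of the other 7 arrays. The summed marker level ranged over 51.2 to 59.5 in untreated cells, 49.7 to 54.5 at 200 ng/ml and 53.0 to 70.2 at 800 ng/ml. The table has no true zero, so no marker can be called absent.

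In 800 ng/ml replicate 1, the mean of the neural markers, 4.42, lay within the range of the other doses. Its NCAM1, 5.42, lay above all 200 ng/ml samples and untreated replicates 1 and 3, but below untreated replicate 2 (5.52). SLC1A2 in this sample was 6.71, below 800 ng/ml replicates 2 and 3 and untreated replicate 3 (6.78), but above every 200 ng/ml sample. With 800 ng/ml replicates 2 and 3 both left out, the SLC1A2 difference was 0.66 against 200 ng/ml and 0.69 against untreated cells. With untreated replicate 2 left out as well these were 0.66 and 0.21. Each of these values rests on a lone 800 ng/ml sample and was chosen after the data were seen. The part that neural transcripts played in the SLC1A2 signal was not tested.

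**Figure D4:**
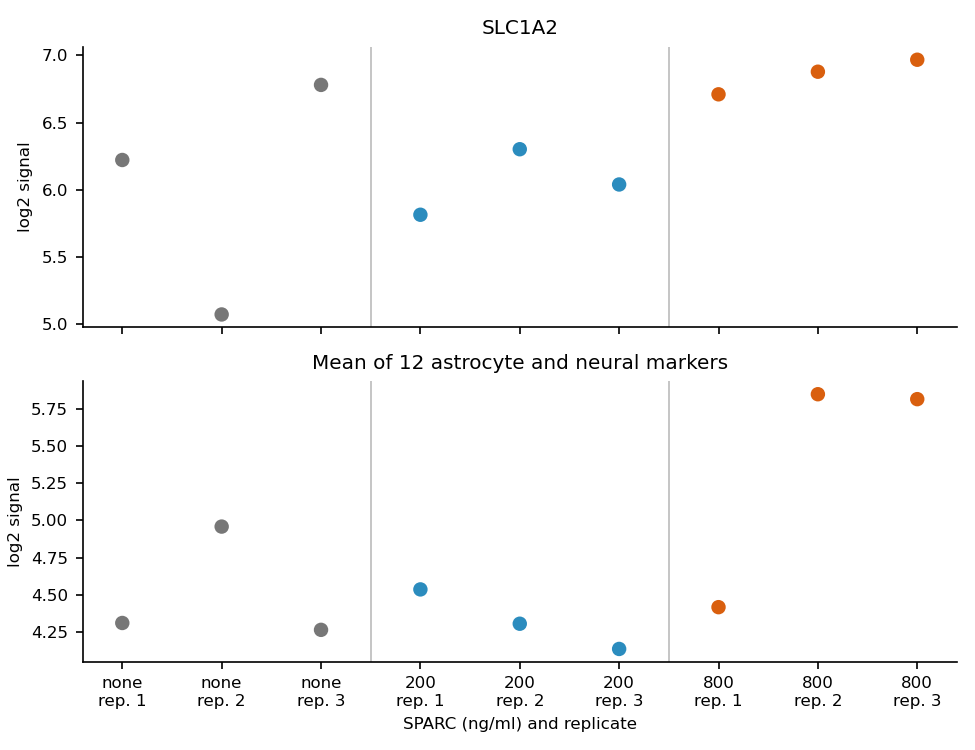
Log2 signal of SLC1A2 (upper panel) and the mean log2 signal of 12 astrocyte and neural markers (lower panel) in each of the 9 samples (horizontal axis, SPARC dose and replicate). SLC1A2 is 6.71 to 6.97 in the 3 samples at 800 ng/ml, whereas the marker mean is 5.85 and 5.81 in replicates 2 and 3 and 4.42 in replicate 1.

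The targets were set beside 6 lists of other Wnt pathway genes, with 90 of their 96 genes measured. An adjusted limma p under 0.05 was found for 0 of the 90 in each comparison, with or without untreated replicate 2. Between the doses with all 9 arrays, the smallest limma adjusted p of any gene was 0.999. An unadjusted p under 0.05 was found for 6, 3 and 2 of them at 800 ng/ml against untreated, 200 ng/ml against untreated and 800 against 200 ng/ml with 9 arrays, against 4.17%, 1.78% and 2.41% of all genes. Without that array the counts were 5, 7 and 16, against 5.36%, 11.3% and 15.3% of all genes. CTNNB1 itself averaged 0.08 higher at 800 than at 200 ng/ml, with an interval of -0.19 to 0.34 without untreated replicate 2. Its signals were 9.33, 8.38 and 9.29 in untreated cells, 9.06, 9.34 and 9.38 at 200 ng/ml and 9.28, 9.28 and 9.45 at 800 ng/ml, and the groups overlapped.

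Among 12 measured cytoplasmic transducers and members of the destruction complex, APC, the tumour suppressor of that complex, had 7.23, 6.82 and 7.12 in untreated cells, 7.06, 7.08 and 7.19 at 200 ng/ml and 7.53, 7.72 and 7.71 at 800 ng/ml. The 800 ng/ml samples lay above the other 6. Over all genes, they lay wholly above untreated cells for 6.08% and wholly above the 200 ng/ml samples for 12.1%. The share with both was not counted. The APC difference was 0.55, or 1.46-fold, against 200 ng/ml (SE 0.11 and limma adjusted p = 0.167 without untreated replicate 2). Against untreated cells it was 0.60 with 9 arrays (limma adjusted p = 0.659) and 0.48 without that array (adjusted p = 0.861). DVL2, a Dishevelled protein that passes on the Wnt signal, had 8.02, 7.96 and 7.98 at 800 ng/ml, against 8.30, 8.24 and 8.31 at 200 ng/ml, a difference of -0.30 (adjusted p = 0.223 without untreated replicate 2). The list's median was 0.06 between the doses, with 8 genes higher and 4 lower at 800 ng/ml. The kinase genes with the smallest p against untreated cells were CSNK1A1 at 800 ng/ml, 0.46 with 9 arrays and 0.09 without untreated replicate 2, and at 200 ng/ml GSK3B, 0.40 and 0.03, and GSK3A, 0.38 and 0.02.

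Of the 23 ligands and R-spondins, 22 were measured, and 20 had a lower mean at 800 than at 200 ng/ml, with a median difference of -0.29, against 0.01 over all genes. For 6 of the 22 the 800 ng/ml samples lay wholly below the 200 ng/ml samples, against 9.72% of genes. Signals of the list were low, from 2.85 for RSPO3 to 6.90 for WNT8A, the latter in untreated replicate 2. Apart from that array, WNT8A lay between 4.21 and 5.05 and the highest signal of the list was 6.16, for WNT10B. The lower quartile of all clusters was 4.07, 3.96 and 3.99 at 200 ng/ml and 3.95, 3.96 and 3.91 at 800 ng/ml. The list was not compared with genes of like signal, so a shift of dim genes between the arrays cannot be told apart. The median of the list moved with untreated replicate 2: at 800 ng/ml against untreated it was -0.45 with 9 arrays and -0.15 without, and at 200 ng/ml -0.14 and 0.07. WNT6 had 4.16, 4.27 and 4.10 at 800 ng/ml, against 4.29, 4.58 and 5.20 at 200 ng/ml, a difference of -0.51 (limma adjusted p = 0.286 without untreated replicate 2). WNT2 differed by -0.42 (adjusted p = 0.277). Against untreated cells, WNT10A and WNT5B differed by -0.60 and -0.93 at 800 ng/ml with 9 arrays, and by -0.36 and -0.47 without that array. At 200 ng/ml, WNT2 differed by 0.45 and 0.43, and WNT8A by -0.84 and -0.13.

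Of 16 measured receptors and co-receptors, 10 were higher and 6 lower at 800 than at 200 ng/ml, with a median of 0.08. FZD3, a Frizzled receptor, had 4.51, 4.39 and 4.51 in untreated cells, 4.02, 4.19 and 4.54 at 200 ng/ml and 4.74, 4.70 and 5.09 at 800 ng/ml. The 800 against 200 ng/ml difference was 0.60 or 1.51-fold (limma adjusted p = 0.201 without untreated replicate 2). The groups of the 2 doses did not overlap, and the untreated samples lay within the 200 ng/ml range. ROR1, a receptor kinase for Wnt ligands, differed by -0.38 (adjusted p = 0.241), also without overlap. Over all genes, 12.1% lay wholly above and 9.72% wholly below at 800 against 200 ng/ml. Against untreated cells, RYK differed by 0.48 at 800 ng/ml with 9 arrays and 0.15 without untreated replicate 2. At 200 ng/ml LRP5 differed by 0.40 and 0.10, and FZD2 by -0.33 and -0.06.

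The 14 secreted inhibitors had a median of 0.01 between the doses, with 9 higher and 5 lower at 800 ng/ml. KREMEN2, a receptor for DKK proteins placed in this list, and SFRP4, a secreted Frizzled-related protein, differed by -0.31 and -0.25, with overlap. Against untreated cells DKK4 differed by -0.46 at 800 ng/ml with 9 arrays and -0.44 without untreated replicate 2, and DKK2 by -0.44 and -0.21. At 200 ng/ml DKK2 differed by -0.65 and -0.43, and SFRP5 by -0.71 and -0.29.

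The 12 measured nuclear partners had a median of -0.06, with 5 higher and 7 lower at 800 than at 200 ng/ml. TLE3, a corepressor of TCF proteins, and BCL9L, a coactivator, differed by -0.27 and -0.19. BCL9, the related coactivator, had 6.76, 5.57 and 7.07 in untreated cells, 7.13, 7.39 and 7.15 at 200 ng/ml and 7.29, 7.24 and 7.25 at 800 ng/ml. All 6 treated samples lay above all untreated ones. With 9 arrays, 6.08% of all genes lay wholly above the untreated samples at the higher dose and 3.92% at the lower one. Without untreated replicate 2 these shares were 10.5% and 13.8%. The share of genes above at both doses was not counted. With 9 arrays, BCL9 differed from the untreated mean by 0.80 at the higher dose and by 0.76 at the lower one. Without untreated replicate 2 it differed by 0.35 and 0.31 (limma adjusted p = 0.912 and 0.436). TLE2 differed by -0.53 and -0.43 at 800 ng/ml, and TCF7L2 by 0.30 and 0.13 at 200 ng/ml, with 9 arrays and without that array.

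Of 16 further targets of beta-catenin, 14 were measured, and 7 were higher and 7 lower at 800 than at 200 ng/ml, with a median of -0.02. MYC and CCND1, growth-promoting targets, differed by 0.05 and 0.06. CYP2E1, a cytochrome of hepatocytes near the central vein, had 3.23, 3.51 and 3.43 at 800 ng/ml, against 3.82, 3.59 and 4.12 at 200 ng/ml, a difference of -0.45 (limma adjusted p = 0.254 without untreated replicate 2). With all 9 arrays its interval held 0, at -0.922 to 0.015. GLUL, another gene of these hepatocytes, had a higher mean at 800 ng/ml. The CYP2E1 signals were low, as the dimmest 25% of genes reached a mean of 4.03, and the 2 genes were not tested against each other. ASCL2, a stem cell transcription factor, differed by -0.38 (adjusted p = 0.284). Against untreated cells CD44 differed by -0.55 at 800 ng/ml with 9 arrays and -0.30 without untreated replicate 2, and ASCL2 by -0.36 and -0.28. At 200 ng/ml RHBG differed by 0.39 and -0.13, and CD44 by -0.27 and -0.02.

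**Figure D5:**
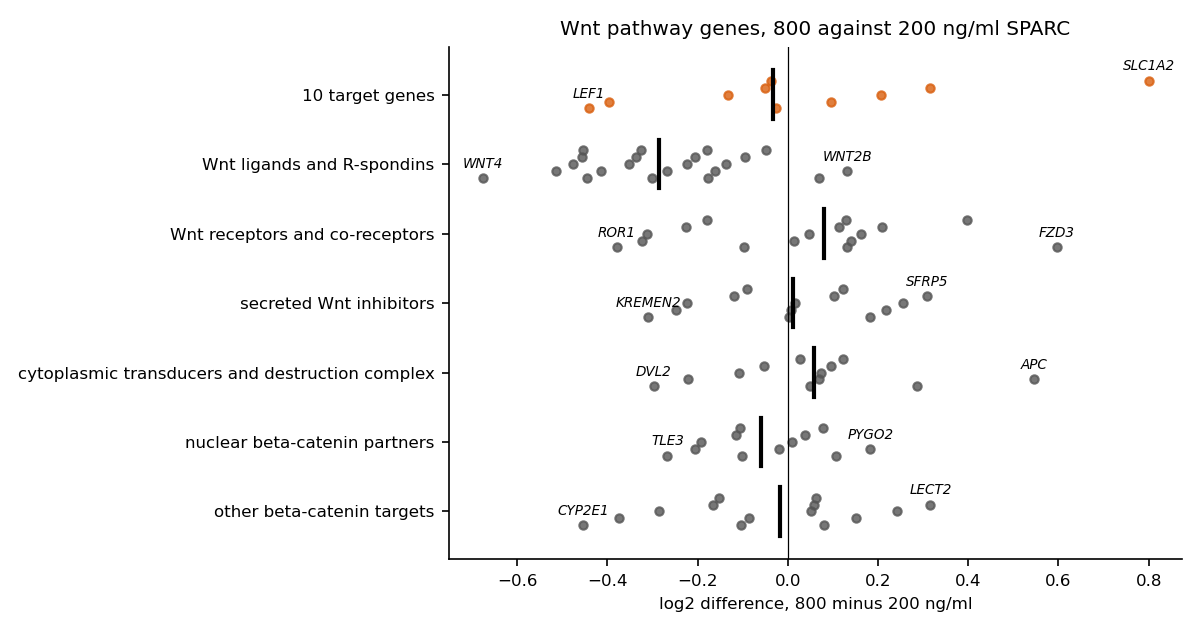
Log2 difference between 800 and 200 ng/ml (horizontal axis) of the 10 target genes (orange) and of the measured genes of 6 other Wnt pathway lists (grey), with a bar at each median and the lowest and highest gene of each list named. The ligands lie mostly left of 0, with a median of -0.29, and the 10 targets spread on both sides from -0.44 for LEF1 to 0.80 for SLC1A2.

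The genes most like SLC1A2, LEF1 and SP5 were sought over the 8 arrays other than untreated replicate 2, as these were the targets whose SD exceeded the median of all genes. The 2 genes with the highest Pearson correlation were NTPCR (0.992) and PRPF4 (0.970) for SLC1A2, MYBBP1A (0.981) and CFAP144 (0.969) for LEF1, and NAP1L5 (0.967) and TBXT (0.967) for SP5. NTPCR had 6.98, 7.05 and 7.05 at 800 ng/ml, against 6.44, 6.79 and 6.60 at 200 ng/ml. TBXT, the transcription factor brachyury, had 4.10, 3.95 and 4.26 at 800 ng/ml, against 4.68, 4.36 and 4.51 at 200 ng/ml. Each pair is the best of all genes over 8 arrays that share their doses, so the correlations are a description.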

How the data were processed

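The authors deposited 1 table of log2 values, with 1 value per transcript cluster and array for 9 arrays. R 3.0 is named per the submitters' processing notes. How they normalized, corrected for background or filtered is not given in the sources used here. The values' range was the basis for taking the scale as log2, and the table has no detection calls. If the arrays were normalized together, differences in overall signal between them were reduced.

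Of 21448 clusters, 17709 had 1 gene symbol in the platform annotation, 0 had several and 3739 had none. Keeping the cluster with the highest mean per gene left 17687 genes. Entrez identifiers changed 0 symbols against RefSeq, and 0 pairs of arrays were identical. A joint fit of the 3 groups was made with limma 3.58.1 (lmFit, eBayes) in R 4.3.3, with p-values two-sided, adjusted by Benjamini-Hochberg over all genes and called under 0.05. Intervals are 95% intervals of that fit. The procedure was tested on simulated data that held no deviating array, so that test does not bear on the effect of untreated replicate 2.

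The 10 genes and the lists were chosen with earlier results of these data known. All 10 are reported in every comparison. Of each pathway list, the 2 genes with the smallest p per comparison are named, besides CTNNB1, MYC and CCND1. Genes like a target are the 2 with the highest correlation. GFAP, NCAM1, AQP4, GJA1, ALDH1L1 and ALDOC were named after their values were seen. Alternatives were quantile normalization, median centring, filters on the dimmest 25% or 50% of genes, fits restricted to the arrays compared, a trended robust prior, a replicate block, and leaving out each array.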

Additional observations from a re-analysis of the deposited data

How the results depend on the processing

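Of 601 recomputed differences of single target genes, 555 kept their direction and their side of the threshold and 46 reversed in sign. The number of target genes called was 0 throughout. With each array left out in turn, 0 to 12 genes were called at 800 ng/ml against untreated and 0 to 15 at 800 against 200 ng/ml, the highest counts without 800 ng/ml replicate 1. With untreated replicate 2 left out and a trended robust prior, limma called 28 genes at 200 ng/ml against untreated and 13 at 800 against 200 ng/ml. The adjusted p of SLC1A2 between the doses ranged from 0.0558 in that fit to 1. Leaving out each array in turn gave differences at 800 ng/ml against untreated of -0.17 to 0.44 for AXIN2, -0.062 to 0.27 for NKD1 and -0.17 to 0.42 for SP5. At 200 ng/ml against untreated they were -0.04 to 0.57 for AXIN2, -0.07 to 0.43 for LGR5, -0.01 to 0.33 for NKD1, -0.059 to 0.46 for TBX3, -0.23 to 0.18 for GLUL, -0.45 to 0.40 for SLC1A2 and -0.35 to 0.13 for LEF1. Between the doses they were -0.055 to 0.024 for RNF43 and -0.091 to 0.004 for ZNRF3, above 0 without 200 ng/ml replicate 1 or 800 ng/ml replicate 3. Without untreated replicate 2 the signs against untreated turned at the ends just given, and the same values held with a trended robust prior. The SLC1A2 and LEF1 signs at 200 ng/ml also turned without 200 ng/ml replicate 2, at -0.10 and 0.002.

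Quantile normalization of 9 arrays gave -0.017 for NKD1 at 800 ng/ml and -0.11 for GLUL at 200 ng/ml against untreated, and median centring 0.017 for RNF43 and 0.005 for ZNRF3 between the doses. Quantile normalization of the 8 arrays without untreated replicate 2 gave -0.16 for AXIN2, -0.05 for NKD1 and -0.17 for SP5 at 800 ng/ml, and -0.005 for LGR5, -0.18 for GLUL, -0.42 for SLC1A2 and 0.073 for LEF1 at 200 ng/ml. After each group's mean was taken off every gene, same-numbered samples of different groups correlated at -0.253 to 0.113. Differently numbered samples correlated at -0.238 to 0.268. With 3 arrays a group and untreated replicate 2 among them, these values cannot settle whether the replicate numbers pair the samples. A replicate block over 9 arrays called 0 genes and left the SLC1A2 difference between the doses at 0.80. A replicate block without untreated replicate 2 gave -0.093 for AXIN2, -0.079 for NKD1 and -0.065 for SP5 at 800 ng/ml, and -0.088 for LGR5, -0.027 for NKD1, -0.09 for TBX3, -0.24 for GLUL, -0.52 for SLC1A2 and 0.20 for LEF1 at 200 ng/ml. The causes of these reversals were not tested. An offset before taking logarithms was not run because the values are on a log scale. The number of arrays limits every value, and signal over background is unknown.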

Other observations

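Marker lists of cell types other than neural tissue were near level across the 8 arrays apart from untreated replicate 2. The mean log2 signal of the 7 endothelial markers lay between 4.25 and 4.50 in these arrays and was 5.07 in untreated replicate 2. That of the 6 measured fibroblast markers lay between 3.91 and 4.16 and was 4.90 in that array. That of the 7 blood and Kupffer cell markers lay between 5.07 and 5.42 and was 6.24. The 6 cholangiocyte markers, which include the epithelial genes KRT19 and EPCAM, lay between 7.61 and 7.72 and were at 7.56.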
